A study of Mus musculus with 9 samples.

Results

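Nephronophthisis genes encode proteins of the base of the cilium, and 8 genes of this group were examined in the testis of wild type and Rfx2-/- mice: Nphp4, Rpgrip1l, Nek8, Invs, Anks6, Iqcb1, Cep290 and Ahi1. They were taken by name from the count table, which lists 23074 genes, through their mouse gene IDs and GENCODE M21 symbols, and all 8 had enough reads to be tested. RNA-seq was carried out on decapsulated whole testes collected at postnatal days 29 to 30, from 5 wild type and 4 Rfx2-/- mice of a mixed C57BL/6, 129/Sv and FVB/N background, each mouse giving 1 library. The RFX2 protein binds DNA and recognises the X-box, an inverted repeat found in front of many ciliary genes. In the mutant, Cre expressed under the ubiquitous ACTB promoter had removed exon 7, which holds much of the DNA binding domain, and per the study's methods the mixed-background line kept a neomycin cassette. The comparison of the genotypes asks which transcripts of the testis depend on RFX2.

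The transition zone is the short stretch between the basal body and the axoneme that controls what enters the cilium. It is built from modules that bind each other, an MKS module in and under the membrane and an NPHP module nearer the microtubules. NPHP4 and RPGRIP1L are partners within the NPHP module, IQCB1 and CEP290 form another pair at the centrosome and the transition zone, and AHI1 (jouberin) is a scaffold protein at the basal body and transition zone. Further out, in the proximal part of the shaft, inversin (Invs) anchors the kinase NEK8 and its activator ANKS6 in what is called the inversin compartment. Mutations in the human genes cause nephronophthisis, Joubert syndrome or retinal degeneration, and mice lacking Nphp4 function have retinal degeneration and infertile males. In the testis the flagellum of each spermatid grows from a centriole with a transition zone at its base.

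RefSeq promoter windows (GRCm38.p6, 250 bases before to 50 after an annotated start) were matched by symbol for 7 of the 8 members, in 10 windows. Shown are 1 of the 3 Nphp4 windows, 1 of the 2 Ahi1 windows and the single windows of Rpgrip1l and Nek8. For Nphp4 and Ahi1 the window printed is the one that holds an X-box palindrome. The palindrome searched is an inverted repeat of the X-box half-site GTNNCC with 2 free bases between the half-sites, where N is any base. It reads the same on both strands and occurs in 618 of 32851 windows of this length (1.88%). Capitals mark it in the printed Nphp4 and Ahi1 windows. The other 2 Nphp4 windows and the other Ahi1 window did not hold it. The Rpgrip1l window held no such match, and the capitals there mark its best match, over both strands, to a full repeat made of GTTGCC, AT and GGCAAC. It agrees in 10 of 14 letters, and 12.2% of all windows hold a match at least as close. The Nek8 window had no match within 4 mismatches of the full repeat and is in lower case throughout.
Nphp4, chr4:152477892-152478191, plus strand: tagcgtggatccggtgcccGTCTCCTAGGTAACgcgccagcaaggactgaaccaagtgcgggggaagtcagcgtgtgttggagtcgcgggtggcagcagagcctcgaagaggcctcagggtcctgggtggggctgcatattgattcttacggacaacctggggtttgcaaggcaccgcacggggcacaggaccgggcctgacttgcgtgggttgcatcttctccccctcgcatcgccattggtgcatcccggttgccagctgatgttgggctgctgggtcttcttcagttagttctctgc
Ahi1, chr10:20952297-20952596, plus strand: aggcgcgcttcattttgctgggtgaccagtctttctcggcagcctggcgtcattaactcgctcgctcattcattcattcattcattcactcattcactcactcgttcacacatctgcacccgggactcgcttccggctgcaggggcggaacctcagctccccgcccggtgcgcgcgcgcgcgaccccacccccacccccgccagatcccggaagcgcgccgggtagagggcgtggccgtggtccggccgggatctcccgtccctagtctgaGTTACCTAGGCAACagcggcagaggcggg
Rpgrip1l, chr8:91313173-91313472, minus strand: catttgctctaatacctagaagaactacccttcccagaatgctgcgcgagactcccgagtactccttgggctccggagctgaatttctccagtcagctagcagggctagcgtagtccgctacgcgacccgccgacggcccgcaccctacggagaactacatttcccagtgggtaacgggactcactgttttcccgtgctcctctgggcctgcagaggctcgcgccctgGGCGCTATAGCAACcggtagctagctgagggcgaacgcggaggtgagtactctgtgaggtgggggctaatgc
Nek8, chr11:78176617-78176916, minus strand: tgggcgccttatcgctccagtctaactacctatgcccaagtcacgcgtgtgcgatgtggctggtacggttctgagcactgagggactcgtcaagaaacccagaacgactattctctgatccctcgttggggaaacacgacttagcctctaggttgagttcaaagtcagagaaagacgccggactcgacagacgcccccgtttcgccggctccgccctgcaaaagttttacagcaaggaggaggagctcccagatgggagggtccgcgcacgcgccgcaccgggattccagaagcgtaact

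The match in Nphp4, GTCTCCTAGGTAAC, begins at position -231 from the start and shares 9 of 14 letters with the full repeat. That in Ahi1, GTTACCTAGGCAAC, begins at position 21 and shares 11 of 14 letters with the full repeat, and that in Rpgrip1l, GGCGCTATAGCAAC, begins at position -22. These are matches of letters in a short window and not mapped binding sites, and no match says only that the letters are not in that window. In the study's list of genes with RFX2 bound at the promoter in testis, used here for membership alone, Cep290 and Rpgrip1l are listed and the other 6 members are not. That list came from dissociated germ cells of wild type mice at postnatal day 21, not from the testes used here. Its promoter regions were wider than the windows searched here.

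The depth was 28800855 counts in Rfx2-/- replicate 1 and 13574764 to 15193330 counts in each of the other 8 libraries. Levels are given as CPM, in which counts are scaled to library size with TMM factors, and 3 counts correspond to 0.0995 CPM in Rfx2-/- replicate 1 and to 0.196 to 0.234 CPM in the others. Reads of the targeted gene followed the labels, with Rfx2 at 470.5 to 623.2 CPM in wild type and at 199, 61.46, 151 and 172.6 CPM in Rfx2-/- replicates 1 to 4. Reads from exons other than the deleted one are still counted, so its level need not reach 0. Rfx2-/- replicate 2 stood apart from the other mutants. In it, genes with under 2 kb of exon were shifted by 0.62 (log2, median of 3724 genes) against the other 3 Rfx2-/- libraries, and genes with over 8 kb by -0.92 (1167 genes). The biological coefficient of variation was 0.139 in wild type and 0.31 in Rfx2-/-, or 0.188 without replicate 2, and the members' results are given with and without that library. Whole testis was sequenced, so fewer cells of a type and less RNA per cell cannot be told apart.

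The 8 members did not move in one direction. Nek8 fell more than 2-fold, Nphp4 fell at a wider limit and Rpgrip1l, the partner of Nphp4, rose at that limit, while Invs, Anks6, Iqcb1, Cep290 and Ahi1 did not pass the test. With an adjusted p at or under 0.01 and a change over 2-fold, 1 member was called lower, where 3.68% of all 15613 genes tested were, and 0 were called higher, against 0.826% of all genes. At an adjusted p at or under 0.05 with no fold limit, 2 members were lower and 1 was higher, beside 7.31% and 3.48% of all genes. Without adjustment 6 members had a p under 0.05, where 27.6% of all genes did. The log2 fold change was below 0 for 4 members and above 0 for 4, with a median of 0.17 over the members and 0.03 over all genes tested.

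**Figure D1:**
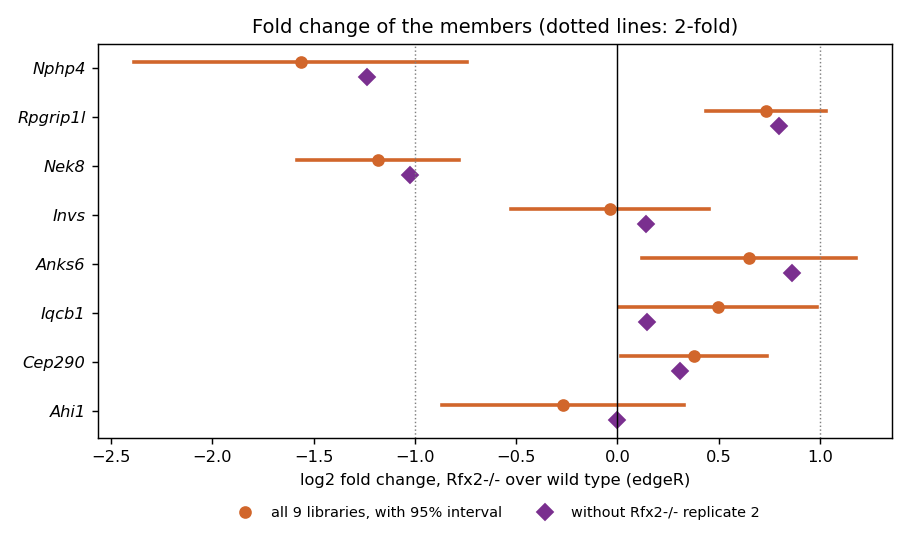
Log2 fold change of each member in Rfx2-/- over wild type testis (x axis, edgeR), with the 95% interval as a bar, for all 9 libraries (circles) and as a value without Rfx2-/- replicate 2 (diamonds). Dotted lines mark a 2-fold change. Nphp4 (-1.56) and Nek8 (-1.18) lie to the left and Rpgrip1l (0.73) to the right with intervals clear of 0. Intervals of Anks6, Iqcb1 and Cep290 also lie above 0 before adjustment, and the Anks6 point moves from 0.65 to 0.86 when the library is left out.

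Nphp4 (ENSMUSG00000039577, chr4:152476706-152563183 in GRCm38, plus strand, 5.027 kb of exons) encodes nephrocystin-4, a scaffold of the NPHP module. Its level was 43.7, 41, 34.08, 44.65 and 43.16 CPM in the wild type libraries and 22.1, 3.273, 14.64 and 15.43 CPM in Rfx2-/- replicates 1 to 4. Every mutant lay below every wild type, as for 9.7% of all genes tested, and replicate 2, with 49 reads, lay far below the other mutants. The mean fell from 41.32 ± 4.261 (SD, n = 5) to 13.86 ± 7.81 CPM (SD, n = 4), and the log2 fold change was -1.56 (SE 0.38, 95% interval -2.38 to -0.74, edgeR adjusted p = 0.0188). Nphp4 thus passed the wider limit but missed the stricter one, although its mean difference was greater than that of Nek8. Without replicate 2 the change was -1.24 (SE 0.15, adjusted p = 7.62e-05) and met the stricter limit too. Leaving out Rfx2-/- replicate 3 or 4 instead took the adjusted p to 0.0515 and 0.0557.

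Rpgrip1l (ENSMUSG00000033282, chr8:91217030-91313262, minus strand, 7.223 kb) encodes the RPGRIP1-like protein that links NPHP4 to the MKS module. Its wild type levels were 73.03, 79.3, 70.28, 87.67 and 91.61 CPM, and the Rfx2-/- levels were 146.2, 115.4, 131.4 and 141.4 CPM. All 4 mutants lay above all 5 wild types, as for 6.16% of all genes tested, and here replicate 2 was only slightly below the others. The mean rose 1.66-fold, from 80.38 ± 9.172 to 133.6 ± 13.63 CPM (SD, n = 5 and 4), with a log2 fold change of 0.73 (SE 0.14, 95% interval 0.44 to 1.03, adjusted p = 0.00376). This change was under 2-fold and so was not called. Without replicate 2 it was 0.80 (adjusted p = 0.000211).

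The partners therefore moved apart within the same libraries. Per kb of exon, the ratio of Rpgrip1l to Nphp4 reads was 1.16 to 1.48 in wild type. It was 4.61 in Rfx2-/- replicate 1, 6.25 in replicate 3 and 6.38 in replicate 4, and reached 24.5 in replicate 2. A ratio of this kind does not depend on how the libraries are scaled to each other, but it was chosen after the values were seen and carries no test.

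**Figure D2:**
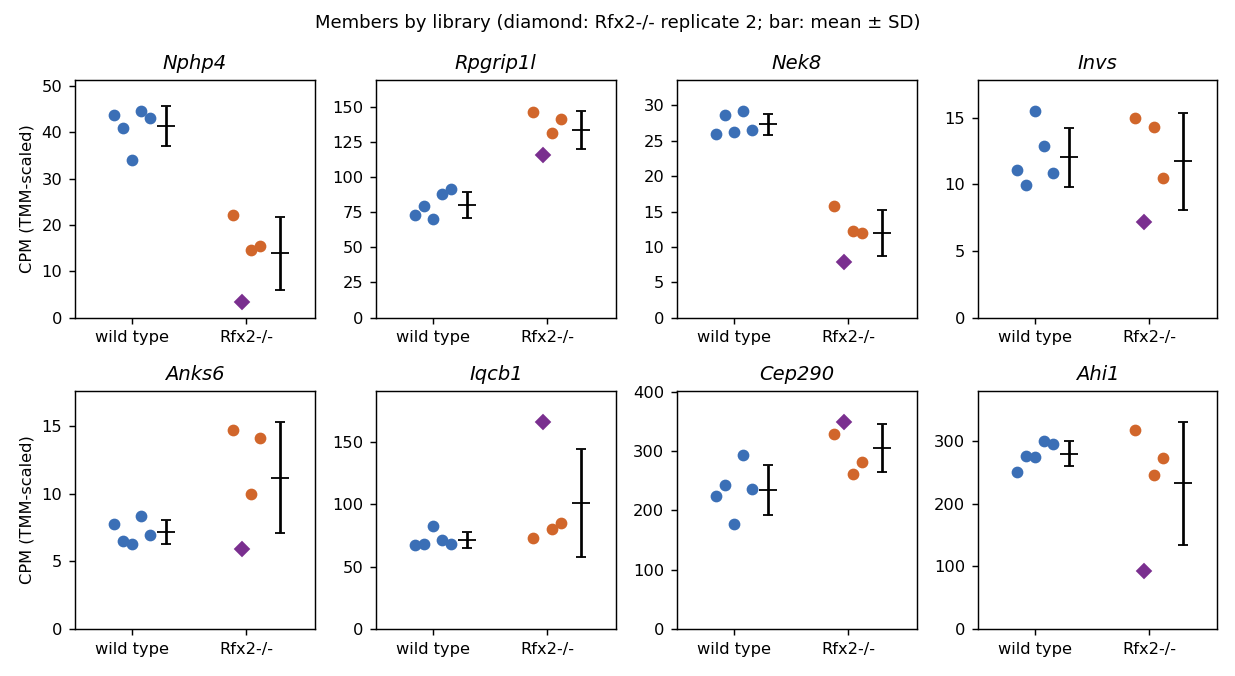
CPM (y axis, TMM-scaled, from 0) of the 8 members in each of the 5 wild type (blue) and 4 Rfx2-/- libraries (orange, with replicate 2 as a purple diamond), with the mean ± SD beside each group. Nphp4 and Nek8 show no mutant as high as any wild type, Rpgrip1l shows the opposite, and in Anks6 the diamond at 5.879 CPM sits below the other mutants at 10.01 to 14.73 CPM.

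In the inversin compartment the kinase fell, while its anchor and its activator did not pass the test. Nek8 (ENSMUSG00000017405, chr11:78166106-78176675, minus strand, 2.809 kb) encodes a NIMA-related kinase. It was at 25.97, 28.63, 26.24, 29.25 and 26.56 CPM in wild type and at 15.83, 7.883, 12.26 and 11.96 CPM in Rfx2-/-. The wild types lay within a narrow band and all mutants lay below it, as for 9.7% of all genes tested. Its mean fell from 27.33 ± 1.498 (SD, n = 5) to 11.98 ± 3.249 CPM (SD, n = 4), to 43.8% of wild type, with a log2 fold change of -1.18 (SE 0.18, 95% interval -1.58 to -0.78, adjusted p = 0.00108). The interval includes changes under 2-fold. The change was -1.02 without replicate 2 (adjusted p = 7.35e-05), and Nek8 stayed called in all 15 alternatives with the same limits, including the removal of each library in turn, but not when tested against 2-fold itself.

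Inversin itself did not pass the test. Invs (ENSMUSG00000028344, chr4:48279760-48431954, plus strand, 5.633 kb) was at 11.08, 9.98, 15.54, 12.89 and 10.83 CPM in wild type and at 14.96, 7.148, 14.3 and 10.52 CPM in Rfx2-/-. The groups overlapped over most of their range. Means were 12.06 ± 2.216 and 11.73 ± 3.629 CPM, and the log2 fold change of -0.04 had a 95% interval of -0.53 to 0.45 (adjusted p = 0.931), so that a decrease of the size seen for Nek8 lies outside it. The sign changed with the scaling, to 0.085 under total counts. Of its exon bases 226 (4.012%) overlap Tex10 on the opposite strand, and reads shared by exons of different genes were left out by the authors. Whether this took in exons on opposite strands is not stated.

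Anks6 (ENSMUSG00000066191, chr4:47015669-47057427, minus strand, 3.877 kb), the ankyrin repeat protein that binds and activates NEK8, was, with Invs, the lowest member per length in wild type. It was at 7.792, 6.499, 6.244, 8.325 and 6.933 CPM in wild type and at 14.73, 5.879, 10.01 and 14.12 CPM in Rfx2-/-. Of the mutants, 3 lay above all wild types and replicate 2 lay below them. The means were 7.159 ± 0.8781 and 11.18 ± 4.112 CPM, and the log2 fold change of 0.65 (SE 0.24, adjusted p = 0.11) did not pass. Without replicate 2 it was 0.86 (SE 0.16, adjusted p = 0.0023), and under total counts it was 0.77 (adjusted p = 0.0491).

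Replicate 2 did not stand apart when Anks6 was set against Nek8 within each library. Per kb, Anks6 was at 0.164 to 0.217 times the Nek8 level in wild type and at 0.674, 0.54, 0.592 and 0.855 times in Rfx2-/- replicates 1 to 4. Invs was at 0.174 to 0.295 times Nek8 in wild type and at 0.439 to 0.582 times in Rfx2-/-. In both ratios every mutant lay above every wild type, with replicate 2 inside or near the range of the other mutants. Nek8, the member called lower, is the divisor in both, so their rise includes its fall. Ratios of other gene pairs were not counted. These ratios too were chosen after the values were seen and carry no test.

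The pair of IQCB1 and CEP290 did not pass. Iqcb1 (ENSMUSG00000022837, chr16:36828385-36872721, plus strand, 2.85 kb), a calmodulin-binding partner of CEP290, was at 67.61, 67.69, 82.7, 71.39 and 68.09 CPM in wild type and at 72.53, 165.7, 80.08 and 84.77 CPM in Rfx2-/-. Apart from replicate 2 the mutants lay within or just above the wild type range. Its log2 fold change was 0.49 (SE 0.22, adjusted p = 0.177) over all libraries and 0.15 (adjusted p = 0.405) without replicate 2.

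Cep290 (ENSMUSG00000019971, chr10:100487558-100574840, plus strand, 8.752 kb) encodes a large coiled-coil protein that bridges the microtubules and the membrane of the transition zone. Its wild type levels were 224.1, 242.5, 176.8, 293.4 and 236.8 CPM, and the Rfx2-/- levels were 327.9, 348.8, 260.7 and 282.1 CPM. The upper mutants exceeded every wild type and the lower ones did not. Means were 234.7 ± 41.76 and 304.9 ± 40.58 CPM, with a log2 fold change of 0.38 (SE 0.16, 95% interval 0.02 to 0.74, adjusted p = 0.162). Under total counts it was 0.52 and passed the wider limit (adjusted p = 0.0415). Of its exons, 776 bases (8.867%) overlap 4930430F08Rik on the opposite strand. On either strand, 8.333% of its 50-base stretches also occur in other genes, a count that takes in this overlap. Reads with several positions are left out under the stated counting. Reads in the overlap are left out only if the counting ignored strand, which is not stated.

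Ahi1 (ENSMUSG00000019986, chr10:20952547-21080429, plus strand, 5.094 kb) was the most abundant member per length. It was at 250.8, 276.3, 274.9, 300.1 and 295.6 CPM in wild type and at 318, 92.59, 245.1 and 272.8 CPM in Rfx2-/-. A single mutant, replicate 2, lay far below the rest, and the other 3 spread around the wild type values. The log2 fold change was -0.27 (SE 0.27, 95% interval -0.87 to 0.33, adjusted p = 0.551), and the mean of the other 3 mutants was 278.6 CPM against 279.6 CPM in wild type. The palindrome pattern occurs in the printed window of Ahi1, whose level did not pass the test. With other letters it also occurs in the printed window of Nphp4, which fell. Whether either match bears on the level was not tested.

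Levels can be compared between members only per length of exon. In wild type testis Ahi1 led with 54.88 ± 3.854 CPM per kb (SD, n = 5), followed by Cep290 at 26.82 ± 4.771 and Iqcb1 at 25.09 ± 2.266. Rpgrip1l was at 11.13 ± 1.27, Nek8 at 9.73 ± 0.5333 and Nphp4 at 8.219 ± 0.8477 CPM per kb. Invs at 2.142 ± 0.3934 and Anks6 at 1.846 ± 0.2265 were lowest. Neighbours in this order whose wild type ranges overlapped were Cep290 with Iqcb1, Rpgrip1l with Nek8, and Invs with Anks6, and the other neighbours were apart. Within the inversin compartment the kinase was therefore several times more abundant as RNA, per length, than its anchor and its activator in wild type, at 9.73 CPM per kb. In Rfx2-/- Nek8 was at 4.265 ± 1.157, Anks6 at 2.885 ± 1.061 and Invs at 2.083 ± 0.6443 CPM per kb (SD, n = 4), closer to each other.

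Over all genes tested the biological coefficient of variation was higher in Rfx2-/- (0.31) than in wild type (0.139), as given above. Over the members the coefficient of variation was 5.48% to 18.4% in wild type and 10.2% to 56.4% in Rfx2-/-. It was higher in Rfx2-/- for 6 of the 8 members and not for Cep290 and Rpgrip1l. The share of all genes with a higher value in Rfx2-/- was not counted. Replicate 2 stood apart over all genes, and the share of all genes for which it was the farthest mutant was not counted. In 7 of the 8 members the mutant farthest from the others was replicate 2. Against the mean of the other 3 mutants it differed by -2.34 (log2) in Nphp4, -1.58 in Ahi1, -1.10 in Anks6, -0.86 in Invs, -0.74 in Nek8 and -0.27 in Rpgrip1l, and by 1.07 in Iqcb1 and 0.27 in Cep290. The same difference over genes of like exon length, within 10%, had quartiles of -0.91 and 0.14 for Nphp4, -0.92 and 0.13 for Ahi1, -0.64 and 0.29 for Anks6 and -0.37 and 0.52 for Nek8, and these 4 members lay below the lower quartile. Iqcb1 and Cep290 lay above the upper quartile, which was 0.52 and -0.36. Invs and Rpgrip1l lay between the quartiles of genes of their length. This is a description with no test. With the trend on exon length removed from every library the log2 fold change of Nphp4 was -1.54 and Nphp4 met the stricter limit.

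**Figure D3:**
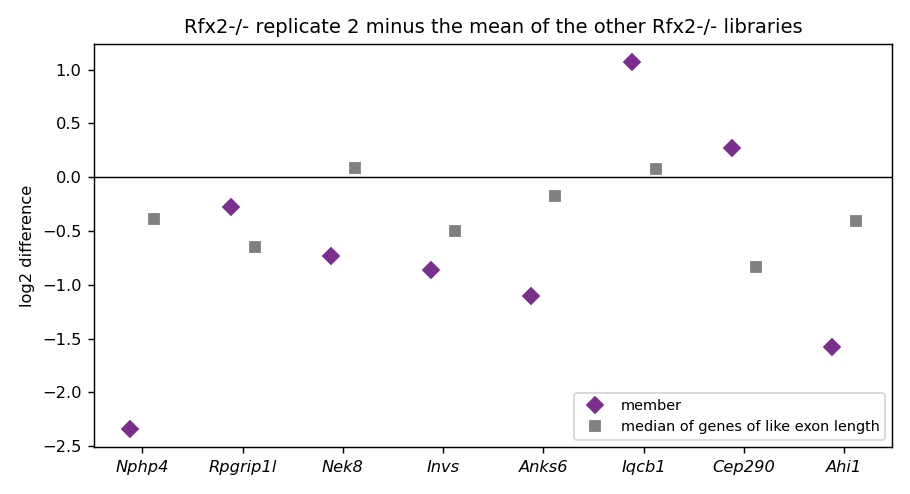
Log2 difference between Rfx2-/- replicate 2 and the mean of the other 3 Rfx2-/- libraries (y axis) for each member (diamonds) and the median of the same difference over genes with an exon length within 10% of it (squares). Nphp4 at -2.34 and Ahi1 at -1.58 lie well under the squares of -0.39 and -0.41, whereas Iqcb1 at 1.07 lies above 0.07.

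Among the marker lists of the cells of the testis, genes at the wider limit were found in 3. These were 5 elongating spermatid genes, 1 round spermatid gene and 1 Sertoli cell gene, Amh, which was higher. Over all genes tested 7.31% were lower and 3.48% higher at that limit. No marker gene was called. All 11 elongating spermatid genes, among them the protamines and transition proteins that pack the sperm head, had a log2 fold change below 0. The 5 that passed were lower in Rfx2-/-, and the median over the 11 was -0.77. Only in Akap4 did every mutant lie below every wild type. The summed level of the 11 ranged from 8886 to 18910 CPM in wild type. It was 7081 to 8177 CPM in Rfx2-/- replicates 1, 3 and 4, and 11320 CPM in replicate 2. The 8 genes of meiotic prophase all had values above 0, with a median of 0.45 and sums of 569.4 to 683.6 CPM in wild type, but 0 of them passed. Their sum was 1444 CPM in replicate 2 and 703.4 to 808 CPM in the other 3 mutants. The 8 round spermatid genes had a median of 0.38, with 1 higher, and sums of 720.3 to 1037 CPM in wild type and 1008 to 1372 CPM in Rfx2-/-. None of the germ cell or somatic marker genes was at 0 in every library, and the part of cell composition in the members' results was not tested.

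The MKS module, which sits beside the NPHP module, had 15 genes tested. Of these 3 were lower at an adjusted p at or under 0.05 (7.31% of all genes were) and 0 were higher, 10 had a log2 fold change below 0, and the median was -0.10. Tmem231, a membrane protein of the transition zone, fell from 40.68 ± 3.056 to 17.26 ± 0.7606 CPM, with mutants at 16.42, 17.84, 16.82 and 17.97 CPM and a log2 fold change of -1.24 (SE 0.12, adjusted p = 2.69e-05), and was the 1 gene called. Replicate 2 did not stand apart there. Tctn2, of the tectonic family, fell from 174.7 ± 15.77 to 98.66 ± 23.25 CPM (log2 fold change -0.82, adjusted p = 0.0102). Tmem107, which helps to assemble the module, fell from 32.35 ± 3.115 to 18.57 ± 6.101 CPM (log2 fold change -0.80, adjusted p = 0.0195). As for Nek8, every mutant lay below every wild type in each of these 3 genes, where 9.7% of all genes tested did so. The 3 were named for their adjusted p, so this is no separate result. Tmem107 missed the wider limit in 5 of the 15 alternatives, and without Rfx2-/- replicate 2 the number of MKS genes that passed was 5. In that fit the genes called lower among all genes also rose, from 575 to 632. The share of all genes at the wider limit there was not counted.

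Of 21 other genes linked to nephronophthisis or Joubert syndrome or known to bind the members, 4 were lower at the wider limit and 0 were higher, beside 7.31% and 3.48% of all genes. Values were below 0 for 16 of the 21, with a median of -0.32. Zfp423, a zinc finger transcription factor, fell from 18.5 ± 4.762 to 1.49 ± 0.6048 CPM, with a log2 fold change of -3.60 (SE 0.31, adjusted p = 8.42e-06). Dcdc2a, a doublecortin domain protein that binds microtubules, fell from 32.39 ± 3.941 to 6.287 ± 0.9715 CPM, with a log2 fold change of -2.36 (SE 0.16, adjusted p = 1.3e-06). Both were called, with log2 fold changes below that of every member. Rpgr, a ciliary GTPase regulator that binds proteins of the RPGRIP1 family, fell from 53.59 ± 8.166 to 31.57 ± 2.795 CPM (log2 fold change -0.76, adjusted p = 0.00505). Xpnpep3, an aminopeptidase, fell from 31.98 ± 1.784 to 20.86 ± 4.277 CPM (log2 fold change -0.61, adjusted p = 0.025), but missed the wider limit in 7 of the 15 alternatives. Without Rfx2-/- replicate 1 or 2 the number of genes of this list that passed was 8 and 7. The share of all genes that passed in those fits was not counted.

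**Figure D4:**
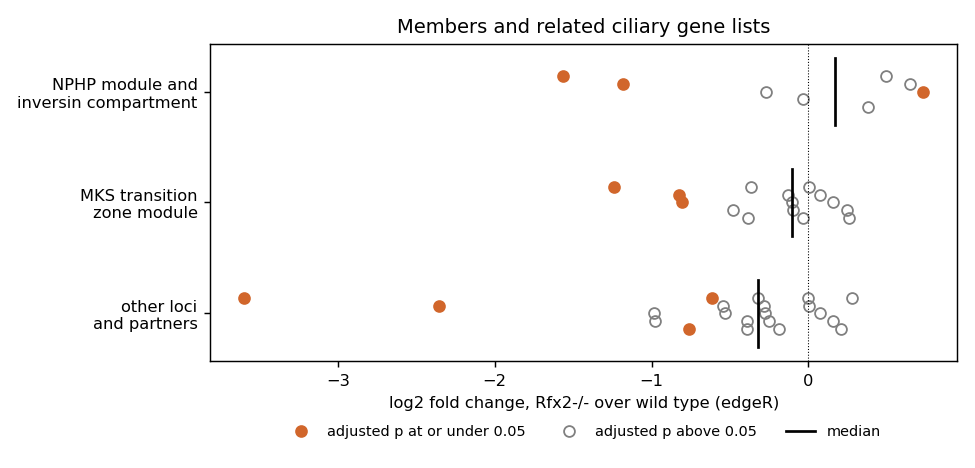
Log2 fold change in Rfx2-/- over wild type (x axis, edgeR) of the 8 members, 15 genes of the MKS module and 21 other loci and partners. Filled circles are genes with an adjusted p at or under 0.05, open circles are the rest, the black bars are medians (0.17, -0.10 and -0.32), and Rpgrip1l is the single filled circle to the right of 0.

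The genes with a pattern most like that of Nek8 were found by Pearson's correlation of log2 CPM over the 9 libraries. They were Umodl1 (r = 0.9959), Cfap46 (r = 0.9953) and Cep131 (r = 0.9943). The libraries share the genotype difference and replicate 2, which shape all of these patterns, and the values are a description. Cfap46, of the central apparatus of the flagellum, fell from 86.69 ± 7.075 to 8.433 ± 5.452 CPM with a log2 fold change of -3.33 (SE 0.37), further than Nek8. Cep131, a protein of centriolar satellites, fell from 101.2 ± 3.502 to 21.37 ± 8.36 CPM, with a log2 fold change of -2.24 (SE 0.25), and Umodl1 fell by 2.27 on the log2 scale.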

How the data were processed

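RNA-seq libraries were made from testes of 5 wild type and 4 Rfx2-/- mice. The authors deposited whole-number read counts for each gene, without normalisation, made from single 50-base reads mapped to GRCm38 (Ensembl release 70) with STAR (2.4 per the labels), discarding reads with several positions and reads shared by exons of different genes, and counting with featureCounts (1.4.6). The use of strand is not stated, and genes with near-identical copies lose reads. Groups were taken from the labelled genotype of each mouse, and replicate numbers follow deposition order. The members and gene lists were chosen with earlier results of these data known.

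For the test between genotypes, edgeR 4.0.16 (R 4.3.3) was used with its quasi-likelihood model (filterByExpr, TMM factors, robust fitting, genotype only), with Benjamini-Hochberg adjustment over 15613 genes. Standard errors are the log2 fold change over the square root of F, and 95% intervals use the t quantile of the fit. Genes were called at an adjusted p at or under 0.01 and over 2-fold, and the wider limit was an adjusted p at or under 0.05. Positions, exon lengths and overlaps came from GENCODE M21 (GRCm38), which held 96.6% of the gene IDs. The genes named are every member, Rfx2, the genes of the related lists at the wider limit and the 3 genes most correlated with each called member. Correlations used log2(CPM + 0.5). The floor of 3 counts covers counting error only, and the members had 49 to 9884 reads per library. In simulated counts of this design 97 of 99 genes lowered 4-fold were called and 8 of 100 lowered 1.5-fold had an adjusted p at or under 0.05. The simulation held fewer changed genes than passed in the data, and the same spread in both genotypes. Alternatives were DESeq2 1.42.0, its size factors, total counts, no filter on low counts, removal of the trend on exon length, a test against 2-fold, unadjusted p, no robust fitting, and leaving out each library. Those for the related lists were chosen after seeing the data. A result on further genes of this family is not reported here.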

Additional observations from a re-analysis of the deposited data

Results flagged for a closer look

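Iqcb1 stood out in both groups. In wild type replicate 3 it was at 82.7 CPM, against 67.61 to 71.39 CPM in the other 4 wild types, a gap of 0.749 of the group's whole range and above Dixon's limit for 5 samples. In Rfx2-/- replicate 2 it was at 165.7 CPM, against 72.53 to 84.77 CPM in the other mutants, a gap of 0.869, above the limit for 4 samples. Of 16 groups checked, 8 members in each genotype, these 2 passed, and chance alone gives about 1 in 20.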

How the results depend on the processing

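Of the members, Nek8 ranged from -1.32 to -1.02 (log2 fold change) over the 15 alternatives with the same limits and was called in each, Rpgrip1l ranged from 0.70 to 0.91 and passed the wider limit in each, and Nphp4 ranged from -1.86 to -1.24, passed the wider limit in 13 and was called in 4 (DESeq2, the length trend removed, and either Rfx2-/- replicate 1 or 2 left out). Invs changed sign, to 0.085 under total counts, to 0.046 with the length trend removed and within -0.15 to 0.14 when single libraries were left out. The cause was not tested. Members called lower numbered 1, but 2 with DESeq2, with the length trend removed and with unadjusted p, 0 when tested against 2-fold, and 1 to 2 without single libraries. Members at the wider limit numbered 3, but 5 under total counts (Anks6 and Cep290 added), 0 against 2-fold, and 2 to 4 without single libraries. Members called higher numbered 0 throughout, and the members' median stayed at 0.11 to 0.30. Among all genes, 575 were called lower and 129 higher. Against 2-fold these were 272 and 29, without single libraries 447 to 632 and 92 to 175, and those called higher were 211 with DESeq2 and 262 with unadjusted p. MKS genes at the wider limit numbered 3, but 0 against 2-fold and 2 to 5 without single libraries. Of the other loci 4 passed, but 8 with DESeq2, 7 with the length trend removed, 2 against 2-fold and 3 to 8 without single libraries. Genotype was the only term in the fit, so no pairing was used. The labels give no replicate numbers, and those used here follow deposition order. Per the study's methods littermates of like age were taken where possible, and litter was not taken into account here. In simulated counts 8 of 100 changes of 1.5-fold passed the wider limit. Few genes were changed there and both genotypes had the same spread, whereas 1686 of 15613 genes passed that limit in the data. The simulated share therefore does not say how often changes of that size were detectable here.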
